A study of Mus musculus with 9 samples.

Results

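The matrix metalloproteinase genes Mmp2, Mmp3, Mmp9, Mmp10, Mmp11, Mmp12, Mmp13, Mmp14 and Mmp19 were chosen by symbol, with earlier results of these data known. The 9 genes were each matched to 1 row of the deposited tables, which list 54281 genes and 23 Mmp genes in all. They were followed in bulk RNA sequencing of Comma-1D, a mouse mammary epithelial cell line grown with serum, EGF and insulin. The cells were sorted by surface Sca-1 and EpCAM into bi (Sca-1 high, EpCAM high), L (Sca-1 low, EpCAM high) and B (Sca-1 high, EpCAM low). Each population was sequenced from cells transduced with an activated MYC oncogene, from cells transduced with an activated Her2 oncogene and from control cells, 1 library each, which makes 9 libraries from 1 line. Whether the transgenes were human or mouse, whether control cells received an empty vector and whether the arms were cultured apart is not stated in the labels. With no replicates, the residual spread of a gene is how far its differences between arms vary from population to population. Technical spread between the libraries cannot be told apart from it. For the p-values, edgeR draws the spread of each gene towards a trend over all genes tested.

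Matrix metalloproteinases are zinc proteases that cut collagens, laminins, proteoglycans and other proteins of the extracellular matrix and cell surface. Most are secreted as inactive precursors, are activated when a propeptide is removed by other proteases, and are held in check by the tissue inhibitors encoded by the Timp genes. In the mammary gland they take part in duct branching and in the matrix turnover of involution, and they have long been studied in breast tumours. The genes of the stromelysin and interstitial collagenase type are textbook targets of AP-1, the dimer of Fos and Jun proteins, downstream of growth factor receptors.

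The 9 libraries held 46.9 to 98.9 M reads. Levels are counts per 1000000 reads of a library (CPM), and 10 reads equal 0.101 to 0.213 CPM. In each population the arm with the highest Myc level was MYC, and the arm with the highest level of Erbb2 (the gene of Her2) was Her2. Epcam was at 239.8 CPM or more in every bi and L library, against at most 0.796 CPM in B. The keratin genes Krt5 and Krt14 were at 544 CPM or more in all 9 libraries. The epithelial genes Krt8 and Krt19 stayed at or under 0.0926 CPM in B. They were also low in bi, at up to 3.15 and 0.581 CPM, and reached 27.9 and 14.9 CPM in L. Krt18, Cdh1 and Krt7 reached 76.5, 305 and 17.5 CPM in bi, 767, 581 and 614 CPM in L and 4.32, 2.12 and 0.782 CPM in B.

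Mmp13, Mmp12, Mmp3 and Mmp10 lie together on chromosome 9 of the mouse build GRCm38, and the 150 bases before the RefSeq start of 3 of them are shown because each held a copy of the AP-1 motif TGANTCA, printed in capitals. The sequences are from RefSeq on GRCm38.p6, plus strand, 5′ to 3′, and end at the base before the start.
Mmp3: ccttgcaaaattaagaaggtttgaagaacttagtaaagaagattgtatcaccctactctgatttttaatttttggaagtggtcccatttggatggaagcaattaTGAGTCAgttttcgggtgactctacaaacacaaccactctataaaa
Mmp10: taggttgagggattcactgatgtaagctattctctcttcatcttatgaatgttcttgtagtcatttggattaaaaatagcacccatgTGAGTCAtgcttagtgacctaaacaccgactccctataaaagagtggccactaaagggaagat
Mmp13: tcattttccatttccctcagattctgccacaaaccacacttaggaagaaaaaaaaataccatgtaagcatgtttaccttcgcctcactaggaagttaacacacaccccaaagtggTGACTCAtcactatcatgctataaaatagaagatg
They cover chr9:7445672-7445821 for Mmp3, chr9:7502192-7502341 for Mmp10 and chr9:7272364-7272513 for Mmp13. The motif lay 46 to 40 bases before the start in Mmp3, 63 to 57 in Mmp10 and 35 to 29 in Mmp13. It was searched on both strands in windows of equal length. Of the 6 members with a RefSeq promoter entry (Mmp3, Mmp10, Mmp11, Mmp12, Mmp13 and Mmp14) 3 held it, against 4.24% of all 32851 promoters. The same 3 windows held TATAAA on the plus strand, which 4.84% of all promoters hold. AACCACA, a Runx motif, was found in Mmp13 alone of the 6 (2.61% of all promoters). AGGAAG, an Ets motif, was found in Mmp12 and, at 2 places, in Mmp13 (19.7% of all promoters). None of these matches overlapped another. A match is a run of letters and no measure of binding.

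Per unit of transcript length, as the deposited transcripts per 1000000 transcripts (TPM), Mmp14 was the most abundant member in 8 of the 9 libraries. It held from 47.2% of the summed TPM of the 9 members in B Her2 to 77.6% in L MYC. The exception was B control, where Mmp12 took 51.9% and Mmp13 20.1%. The summed TPM was 59.5 to 129 in those 8 libraries and 816 in B control. Second place went to Mmp2 in 5 of those 8 libraries, to Mmp3 in B MYC and bi Her2, and to Mmp10 in L Her2.

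**Figure D1:**
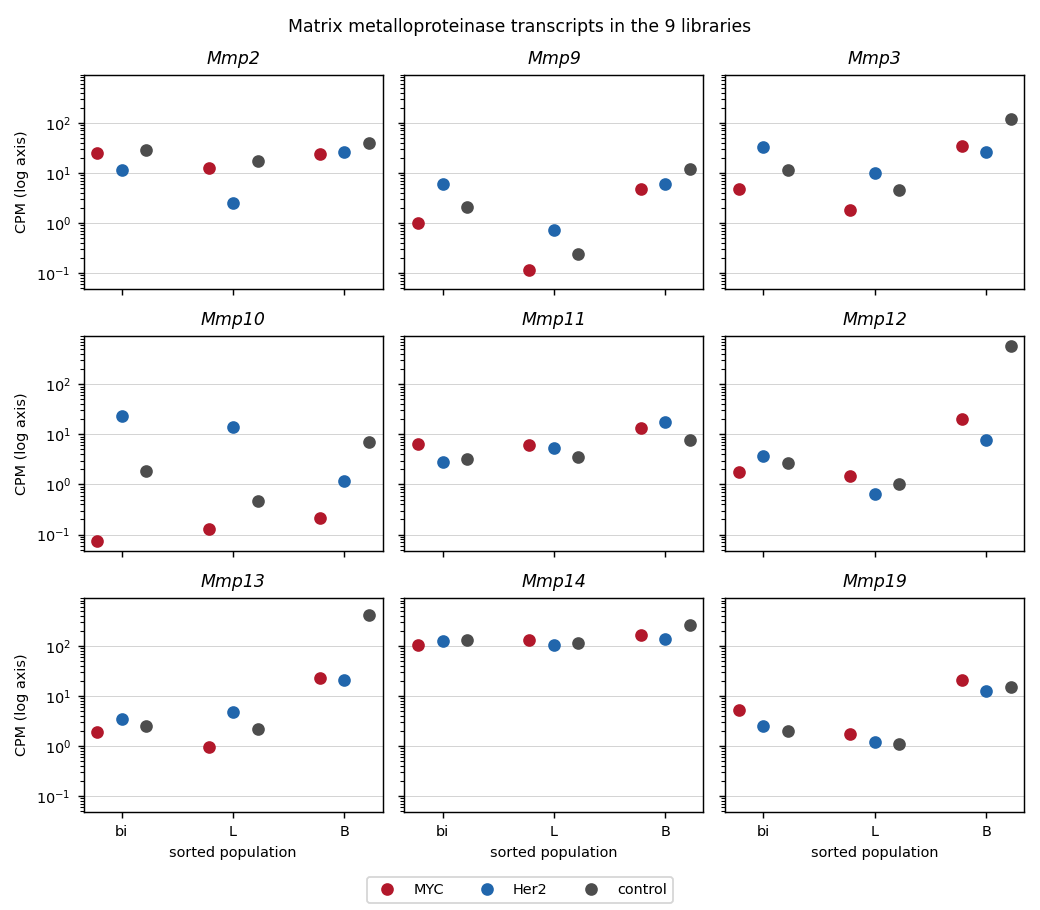
Levels of the 9 members in each library, in CPM on a log axis, by sorted population (bi, L, B) and arm (colour). Each point is 1 library. Mmp12 and Mmp13 in B control, at 585 and 405 CPM, stand far above the other libraries, Mmp10 is high in the L and bi libraries with Her2, and Mmp14 stays between 104 and 255 CPM.

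All members but Mmp10 were less abundant in the EpCAM-high, Sca-1-low population L than in B. Of the 9 genes 8 fell in L and none rose at an adjusted p under 0.05 (edgeR quasi-likelihood test, average over the 3 arms), where 9.26% of all 23834 genes tested fell. The median log2 fold change was -3.58 over the members and 0.04 over all genes tested. For the same 8 genes all 3 L libraries lay under all 3 B libraries, which held for 13.7% of all genes tested. The members were chosen with earlier results of these data known, so these counts and medians describe the chosen genes and not the whole family. Of the 11 other Mmp genes tested, 3 rose and 1 fell in L against B, with a median log2 fold change of 0.88. In a bulk library, fewer cells that express a gene and less RNA per cell cannot be told apart.

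The gelatinases, which cut denatured collagen and basement membrane collagen, are Mmp2 and Mmp9. Mmp2 was at 24.6, 11.4 and 28.1 CPM in the MYC, Her2 and control libraries of bi, at 12.7, 2.45 and 16.9 CPM in those of L and at 23.7, 26.3 and 40.1 CPM in those of B. The L and B libraries did not overlap, while bi overlapped with both. Mmp2 fell by 1.87 on the log2 scale in L against B (SE 0.37, adjusted p = 0.00601). Mmp9 was at 0.974, 6.07 and 2.03 CPM in the MYC, Her2 and control libraries of bi, at 0.115, 0.714 and 0.239 CPM in those of L and at 4.73, 5.90 and 11.8 CPM in those of B. All L libraries were under all others, and bi Her2 lay above 2 B libraries. Mmp9 fell by 4.75 in L against B (SE 0.58, adjusted p = 0.000397).

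The stromelysins Mmp3 and Mmp10 cut a broad range of matrix proteins and activate other metalloproteinase precursors. Mmp3 was at 4.74, 33.1 and 11.4 CPM in the MYC, Her2 and control libraries of bi, at 1.77, 9.88 and 4.63 CPM in those of L and at 33.8, 25.7 and 116 CPM in those of B. All L libraries were under all B libraries, and bi Her2 reached the B range. Mmp3 fell by 3.77 in L against B (SE 0.65, adjusted p = 0.00298). Mmp10 was at 0.0749, 23.6 and 1.86 CPM in the MYC, Her2 and control libraries of bi, at 0.130, 13.9 and 0.466 CPM in those of L and at 0.214, 1.15 and 7.06 CPM in those of B, with 4 reads in bi MYC. Its 3 populations overlapped, and its highest levels were those of bi and L with Her2. Its mean was higher in L (4.82 CPM) than in B (2.81 CPM) while the fitted value, an average of the arms on the log scale, was -1.14 (SE 1.33, adjusted p = 0.623). Mmp3 and Mmp10 share sequence: their deposited counts were fractional in 7 libraries and their sum was whole, within 0.01 reads, in all 7, so reads were divided between them.

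Mmp11, stromelysin 3, is a secreted protease best known from the stroma of breast tumours. It was at 6.56, 2.80 and 3.29 CPM in the MYC, Her2 and control libraries of bi, at 6.09, 5.25 and 3.53 CPM in those of L and at 13.7, 17.9 and 7.72 CPM in those of B. Neither bi nor L overlapped with B. Mmp11 fell by 1.41 in L against B (SE 0.34, adjusted p = 0.0155). The call was lost without B Her2 (-1.04), L MYC (-1.26) or the MYC arm (-1.39).

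Mmp12, the metalloelastase, is best known as a product of macrophages. It was at 1.81, 3.73 and 2.70 CPM in the MYC, Her2 and control libraries of bi, at 1.46, 0.656 and 1.04 CPM in those of L and at 20.6, 7.78 and 585 CPM in those of B. All B libraries were above all others, and B control exceeded the second library, B MYC, by 28.4-fold. Mmp12 fell by 6.07 in L against B (SE 1.32, adjusted p = 0.00950). Without B control the value was -3.80, still past the threshold, and over all fits with a library or arm left out it ran from -7.49 to -3.80. The macrophage genes C1qa, C1qb, C1qc and Tyrobp had no reads in any library, Adgre1 reached 0.0123 CPM and Lyz2 0.0246 CPM. Other markers of the list had reads: Cd68 reached 5.28 CPM in bi, 6.43 CPM in L and 8.15 CPM in B. In B, Mrc1 reached 0.910 CPM, Ptprc 0.863 CPM, Csf1r 0.331 CPM and Itgam 0.150 CPM, each with a higher maximum in bi and in L. The part of macrophages in the Mmp12 levels was not tested. The 12 macrophage and leukocyte markers summed to 22.4 to 42.8 CPM in bi, 33.8 to 141 CPM in L and 8.52 to 13.8 CPM in B. Cd14 made up most of the L sum, at up to 136 CPM, and reached 36.4 CPM in bi and 6.31 CPM in B. Mmp12 and Mmp1b overlap on opposite strands, and whether the authors' counting used strand is not given in the sources used here.

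Mmp13, the interstitial collagenase of rodents, cuts fibrillar collagen. It was at 1.93, 3.42 and 2.52 CPM in the MYC, Her2 and control libraries of bi, at 0.937, 4.75 and 2.18 CPM in those of L and at 23.3, 20.8 and 405 CPM in those of B. As for Mmp12, all B libraries were above all others and B control stood out, 17.4-fold above B MYC. Mmp13 fell by 5.09 in L against B (SE 1.04, adjusted p = 0.00714). Without B control it was at -3.38, with the call kept.

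Mmp14, a membrane-type protease, is anchored at the cell surface and activates the Mmp2 precursor. It was at 104, 123 and 133 CPM in the MYC, Her2 and control libraries of bi, at 128, 105 and 115 CPM in those of L and at 168, 139 and 255 CPM in those of B. The B libraries were the highest with no overlap, yet the spread was narrow. Mmp14 fell by 0.68 in L against B (SE 0.19, adjusted p = 0.0305). That call was lost without B control (-0.52), B MYC (-0.66), L control (-0.52), L MYC (-0.71), bi MYC (-0.68), the control arm (-0.46) or the MYC arm (-0.69).

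Mmp19 is a secreted protease that cuts proteins of the basement membrane. It was at 5.16, 2.48 and 1.96 CPM in the MYC, Her2 and control libraries of bi, at 1.74, 1.19 and 1.12 CPM in those of L and at 21.0, 12.3 and 14.8 CPM in those of B. The populations did not overlap: every B library was above every bi library, and every bi library above every L library. Mmp19 fell by 3.58 in L against B (SE 0.28, adjusted p = 3.00e-05). This call and those of Mmp2, Mmp3, Mmp9, Mmp12 and Mmp13 were kept whichever library or arm was left out. The call of Mmp2 was lost without the block of arms (-1.56, adjusted p = 0.103, edgeR) and with limma on log2(TPM + 1) (-1.40, adjusted p = 0.0579), and those of Mmp11 (-1.45, adjusted p = 0.0518) and Mmp14 (-0.72, adjusted p = 0.0536) without the block. The summed level of 9 fibroblast markers also differed between the populations, at 25.8 to 37.4 CPM in bi, 17.2 to 23.0 CPM in L and 86.3 to 139 CPM in B. That sum was carried by Pdgfra, Pdgfrb, Dcn and Col1a1, which reached 94.9, 15.3, 25.7 and 37.8 CPM in B. These maxima came from different libraries: B MYC for Pdgfra and Pdgfrb, B Her2 for Dcn and B control for Col1a1. Col1a1 was at 4.41 CPM in B MYC and 2.40 CPM in B Her2, against 4.24 and 6.92 CPM in bi MYC and bi Her2. Dcn was at 23.3 CPM in B MYC but 1.28 CPM in B control. Other markers of the list did not follow the sum. Thy1 reached 1.30 CPM in bi, 1.20 CPM in L and 0.956 CPM in B. Col3a1 reached 0.880, 1.26 and 0.907 CPM in bi, L and B, and Fap 0.111, 0.274 and 0.0387 CPM. Lum was at most 0.0757 CPM in any library. The part of these genes in the differences was not tested.

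**Figure D2:**
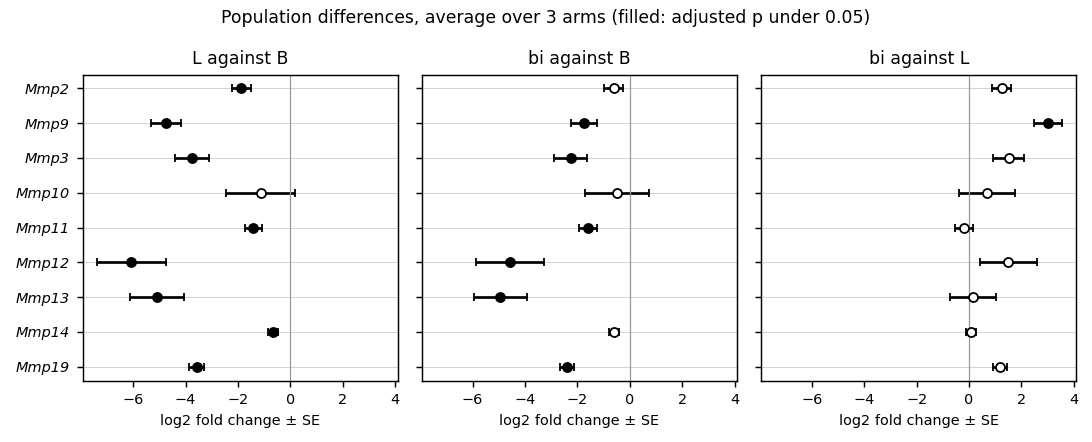
Fitted log2 fold changes with their standard error for L against B, bi against B and bi against L, each the average over 3 arms. Filled points passed an adjusted p under 0.05: 8 of 9 members for L against B, 6 for bi against B and Mmp9 for bi against L.

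In bi against B, Mmp3, Mmp9, Mmp11, Mmp12, Mmp13 and Mmp19 fell, 6 of 9 members against 5.11% of all genes tested, and none rose. In 5 members (Mmp11, Mmp12, Mmp13, Mmp14 and Mmp19) all bi libraries lay under all B libraries, against 12.8% of all genes tested. The median log2 fold change was -1.74, against 0.03 over all genes tested. Of the 11 other Mmp genes tested, 2 rose and none fell, with a median of 0.64. The comparisons of bi and of L with B share the 3 B libraries.

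Mmp13 fell by 4.95 in bi against B (SE 1.01, adjusted p = 0.0112) and Mmp12 fell by 4.57 (SE 1.29, adjusted p = 0.0449). Mmp19 fell by 2.39 (SE 0.27, adjusted p = 0.000441) and Mmp11 fell by 1.60 (SE 0.34, adjusted p = 0.0143). Mmp3 was at -2.26 (SE 0.62, adjusted p = 0.0406) and Mmp9 at -1.74 (SE 0.50, adjusted p = 0.0493), close to the threshold and with overlapping libraries. Mmp14 at -0.61 (adjusted p = 0.0655), Mmp2 at -0.62 (adjusted p = 0.315) and Mmp10 at -0.47 (adjusted p = 0.867) were not called. The mean of Mmp10 ran the other way from its fitted value, at 8.52 CPM in bi and 2.81 CPM in B. The count of called members fell to 3 without L Her2, bi control, bi MYC or bi Her2, and was 4 to 7 with another library or arm removed. Mmp3 lost its call without B control (-1.61), B MYC (-1.78), L Her2 (-2.02), bi control (-1.92), bi MYC (-2.05), bi Her2 (-2.62), the control arm (-1.58) or the MYC arm (-1.82). Mmp9 kept it with B Her2 or the Her2 arm left out, and its values without any other library or arm ran from -2.03 to -1.24. Mmp12 lost it without L Her2 (-4.50), bi control (-3.10) or bi MYC (-4.44), and was at -2.27 without B control. Mmp13 lost it without bi Her2 (-4.98) and was at -3.24 without B control. Without the block of arms Mmp3 (-1.85, adjusted p = 0.227), Mmp9 (-1.33, adjusted p = 0.334) and Mmp11 (-1.62, adjusted p = 0.0582) were not called, nor were Mmp3 (-1.77, adjusted p = 0.119), Mmp9 (-0.82, adjusted p = 0.134) and Mmp12 (-3.87, adjusted p = 0.0747) with limma on log2(TPM + 1).

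Between the EpCAM-high populations, Mmp9 was higher in bi than in L, by 3.01 on the log2 scale (SE 0.54, adjusted p = 0.0427, edgeR). It was the 1 member to rise, where 0.495% of all genes tested rose, and no member fell. All 3 bi libraries of Mmp9, Mmp12 and Mmp19 were above all 3 L libraries, 3 of 9 members against 4.05% of all genes tested. Mmp19 was at 1.18 (adjusted p = 0.104), Mmp2 at 1.25 (adjusted p = 0.214), Mmp3 at 1.51 (adjusted p = 0.429) and Mmp12 at 1.50 (adjusted p = 0.909). The Mmp9 call was kept without B MYC, B Her2 or the Her2 arm and lost with another library or arm removed, with values from 2.55 without bi Her2 to 3.67 without L Her2. It was also lost without the block of arms (2.98, adjusted p = 0.358) and with limma on log2(TPM + 1) (0.72, adjusted p = 0.619). The count of members called was 3 without B Her2 and 2 without the Her2 arm.

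The MYC libraries did not differ from control in any member at an adjusted p under 0.05, where 0.365% of all genes tested passed (edgeR). An unadjusted p under 0.05 was found for 5 of 9 members, against 13.9% of all genes tested, and DESeq2 called 1, Mmp10. Mmp10 averaged 0.140 ± 0.0702 CPM in the MYC libraries and 3.13 ± 3.48 CPM in the control libraries (SD, n = 3 each), the 1 member with no overlap between the arms, where 7.54% of all genes tested lay lower without overlap. Its log2 fold change was -4.14 (SE 1.26, adjusted p = 0.170). Mmp3 was at -1.49 (adjusted p = 0.280), Mmp13 at -2.31 (adjusted p = 0.308), Mmp11 at 0.88 (adjusted p = 0.272) and Mmp19 at 0.86 (adjusted p = 0.167). Mmp11 and Mmp19 had the higher level in the MYC library of every population, and Mmp2, Mmp3, Mmp9, Mmp10 and Mmp13 the lower. With B Her2 or the whole B population removed, 2 members, Mmp3 and Mmp10, were called. Over the fits with a library or population left out, the value ran from -5.11 to -2.23 for Mmp10, from -3.23 to -0.43 for Mmp13 and from -2.01 to -0.81 for Mmp3, with -2.23, -0.43 and -0.81 those without B control.

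No member differed between Her2 and control at an adjusted p under 0.05, where 0.0210% of all genes tested did (edgeR). An unadjusted p under 0.05 was found for Mmp2 alone, 1 of 9 against 8.80% of all genes tested, and DESeq2 called Mmp2. Mmp2 averaged 13.4 ± 12.0 CPM in the Her2 libraries and 28.4 ± 11.6 CPM in the control libraries (SD, n = 3 each). Its log2 fold change was -1.46 (SE 0.37, adjusted p = 0.187), with the Her2 library lower in each population. Mmp10, at 2.63 (SE 1.27, adjusted p = 0.623), was called when B Her2 was left out (3.97).

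Set directly against each other, the oncogenes differed in Mmp10, which fell by 6.76 on the log2 scale in MYC against Her2 (SE 1.35, adjusted p = 0.0252, edgeR), 1 of 9 members where 2.13% of all genes tested fell. It averaged 0.140 ± 0.0702 CPM in the MYC libraries and 12.9 ± 11.3 CPM in the Her2 libraries (SD, n = 3 each). All MYC libraries were under all Her2 libraries, as for 7.04% of all genes tested. The difference was wide in L (0.130 CPM with MYC, 13.9 CPM with Her2) and in bi (0.0749 CPM with MYC, 23.6 CPM with Her2) and narrower in B (0.214 CPM with MYC, 1.15 CPM with Her2). The Mmp10 call was lost without B MYC (-6.90), L MYC (-7.07), L Her2 (-5.62), bi MYC (-6.42), bi Her2 (-5.88), the L population (-6.08) or the bi population (-5.85), without the block of populations (-6.52, adjusted p = 0.159) and with limma on log2(TPM + 1) (-2.51, adjusted p = 0.158). Mmp9 was at -1.92 (adjusted p = 0.0752) and Mmp3 at -1.96 (adjusted p = 0.110). Without B Her2, or without the B population, 4 members were called.

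**Figure D3:**
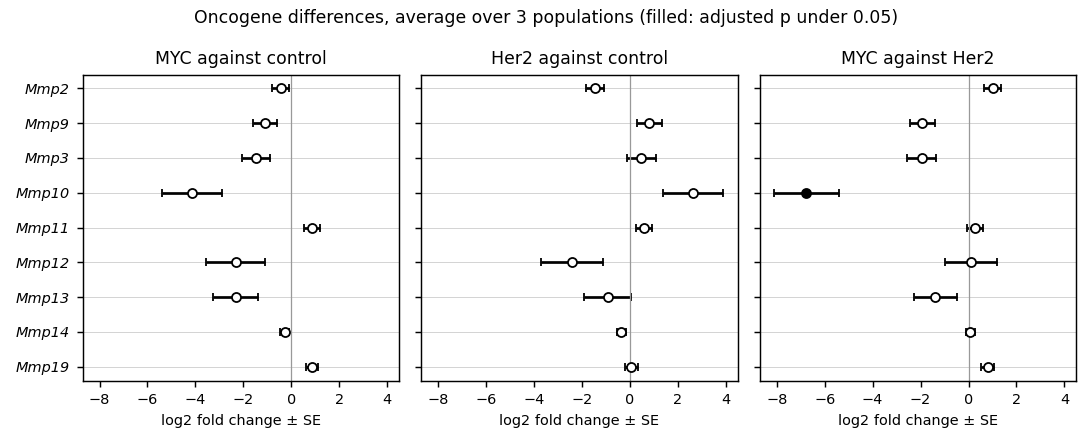
Fitted log2 fold changes with their standard error for MYC against control, Her2 against control and MYC against Her2, each the average over 3 populations. Only Mmp10 in MYC against Her2, at -6.76, passed an adjusted p under 0.05 (filled).

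Within the populations, Her2 went with opposite differences in some members, each from 1 library against 1 and without a test. Mmp10 had a log2 ratio of Her2 to control of 3.46 in bi, 4.99 in L and -2.55 in B. For Mmp3 the ratios were 1.35 in bi, 1.27 in L and -2.12 in B, and for Mmp9 they were 1.39 in bi, 1.64 in L and -0.95 in B. Mmp13 was at 0.26 in bi, 1.29 in L and -4.23 in B. Mmp12 was at 0.28 in bi, -0.47 in L and -6.18 in B. In B control these 5 genes were at their highest of the 3 B libraries, so the averages over populations given above combine unlike values.

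For MYC against control the ratios of Mmp3 were alike in the populations, -1.26 in bi, -1.52 in L and -1.61 in B, and so were those of Mmp9, -1.04 in bi, -1.01 in L and -1.16 in B. Mmp12 was at -0.58 in bi, 0.33 in L and -4.66 in B, and Mmp13 at -0.38, -1.34 and -3.96 in bi, L and B. A model with terms for the effect in B against that in bi and L was added after the data were seen. It has 2 residual degrees of freedom and fits each of the 3 B libraries exactly. Its residual spread therefore comes from bi and L alone, drawn by edgeR towards a trend over all genes tested. It assumes that the single B library of each arm varies as those of bi and L do. It gave a difference of -3.44 for Mmp3 in Her2 against control (SE 0.32, adjusted p = 0.0680, edgeR). For Mmp12 it was -6.19 (SE 0.63, adjusted p = 0.0680), for Mmp10 -6.73 (SE 0.87, adjusted p = 0.134), for Mmp13 -5.08 (SE 0.71, adjusted p = 0.143) and for Mmp9 -2.51 (SE 0.51, adjusted p = 0.218). None of the 9 members passed an adjusted p under 0.05 in this model, where 0.00420% of all genes tested did, while 6 members (those 5 and Mmp2) had an unadjusted p under 0.05, against 11.4% of all genes tested. The model was set up for the pattern already seen in these libraries, so its values describe that pattern and are no further support for it, and each difference rests on the single B control library.

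**Figure D4:**
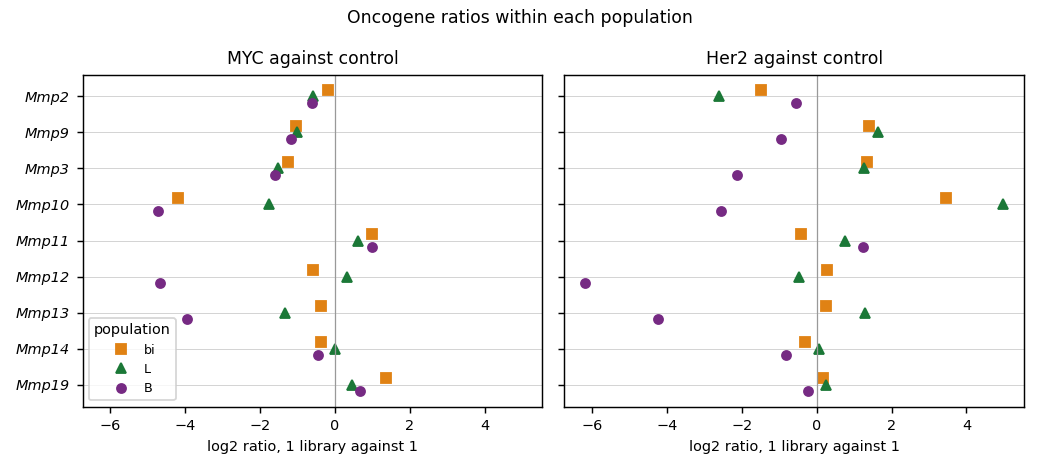
Log2 ratio of MYC to control and of Her2 to control within bi, L and B, each from 1 library against 1, with no error. In the Her2 panel Mmp10, Mmp3 and Mmp9 lie right of 0 in bi and L and left of 0 in B, and Mmp12 and Mmp13 lie far left in B in both panels.

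Of the other 14 Mmp genes 11 were tested. In L against B, 3 of them rose and 1 fell, where 11.5% of all genes tested rose and 9.26% fell, with a median log2 fold change of 0.88. The membrane-type gene Mmp15 averaged 20.6 ± 23.5 CPM in L and 1.93 ± 1.62 CPM in B (SD, n = 3 each), a log2 fold change of 3.01 (SE 0.68, adjusted p = 0.0119). The membrane-anchored Mmp25 averaged 4.24 ± 2.09 CPM in L and 0.216 ± 0.120 CPM in B, a log2 fold change of 4.25. Mmp24 rose by 2.04, at 0.813 ± 0.712 CPM in L and 0.156 ± 0.0287 CPM in B. It had 10, 6 and 8 reads in the control, MYC and Her2 libraries of B. Its L libraries were uneven, at 1.62 CPM with Her2, 0.522 CPM with MYC and 0.293 CPM in control. Mmp28, epilysin, fell by 1.10, at 8.72 ± 1.36 CPM in L and 19.5 ± 9.95 CPM in B. In bi against B, Mmp15 (3.22) and Mmp25 (3.16) rose, where 7.88% of all genes tested did. Mmp17 averaged 1.66 ± 0.522 CPM in L and 0.870 ± 0.120 CPM in B (log2 fold change 0.88, adjusted p = 0.0933). No other Mmp gene was called between bi and L, or between the arms.

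Mmp13, Mmp12, Mmp3 and Mmp10 belong to a run of 10 Mmp genes at chr9:7272514-7699585 (GRCm38), which spans 427 kb and holds no other protein-coding gene. Mmp13, Mmp12, Mmp3 and their neighbour Mmp1b, an interstitial collagenase paralogue, had their highest level in B control. This was not particular to the run: Mmp2, Mmp9 and Mmp14, on other chromosomes, were also highest there, at 40.1, 11.8 and 255 CPM. Mmp10 was highest in bi Her2, Mmp11 in B Her2 and Mmp19 in B MYC. Mmp1b, between Mmp12 and Mmp3, reached 3.29 CPM in B control and 1.73 CPM in bi Her2, and its log2 ratio of Her2 to control was 2.07 in bi, 3.42 in L and -3.32 in B, the signs found for Mmp3 and Mmp10. Reads of Mmp1b may be shared with Mmp1a, since their deposited counts were fractional in 3 libraries and whole in sum. Mmp1b also overlaps Mmp12 on the opposite strand, and Mmp12 was at 585 CPM in B control. Whether reads of Mmp12 entered the Mmp1b values was not tested. Mmp1a, Mmp8, Mmp27, Mmp20 and Mmp7 stayed under 1 CPM in every library.

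**Figure D5:**
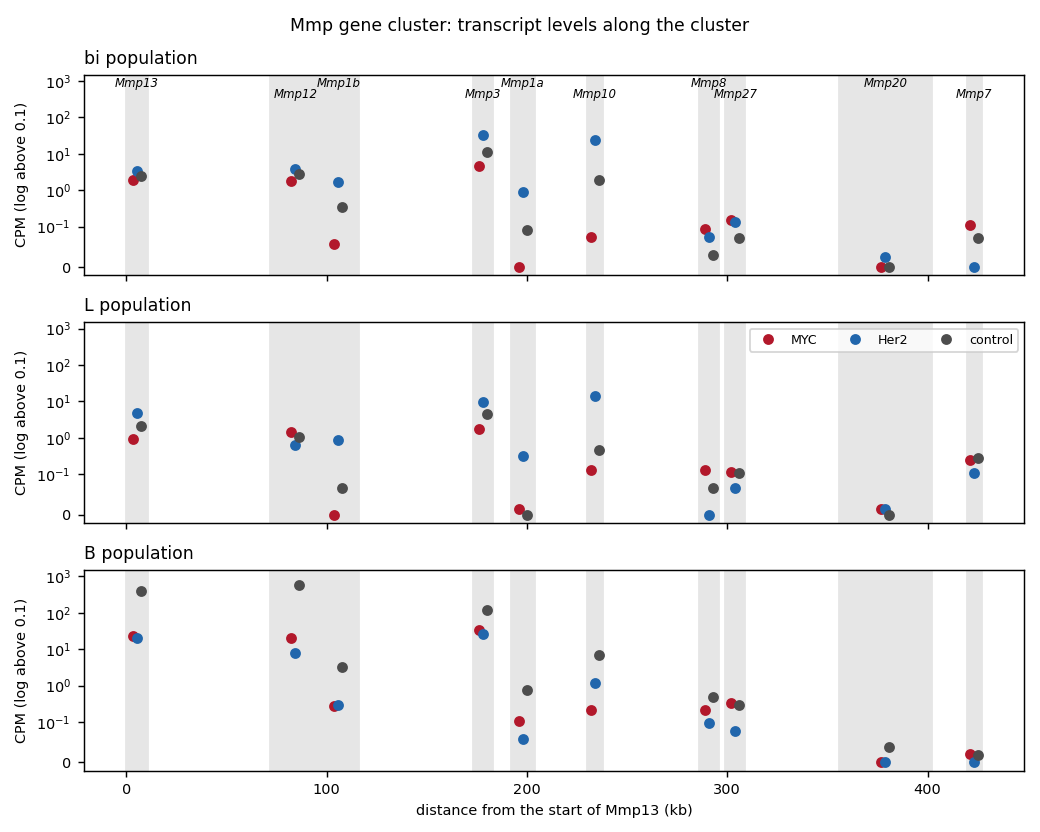
Levels of the 10 Mmp genes of the chromosome 9 cluster against the distance of the gene from the start of Mmp13 in kb, with the extent of each gene shaded. The CPM axis is logarithmic above 0.1 and linear under it, and each point is 1 library. Genes from Mmp8 onward stay under 1 CPM, while Mmp13, Mmp12 and Mmp3 reach 405, 585 and 116 CPM in B control.

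Among the inhibitors, 1 of 6 tested genes rose and 1 fell in L against B, where 11.5% of all genes tested rose and 9.26% fell. The same counts were found in bi against B, where 7.88% of all genes tested rose and 5.11% fell. A single gene each way is near these shares. Timp3, an inhibitor bound to the matrix, averaged 566 CPM in bi and 1018 CPM in L, against 116 CPM in B. Its log2 fold change was 2.45 in bi against B (adjusted p = 0.00186) and 3.34 in L against B (SE 0.37, adjusted p = 0.000213, edgeR). Timp2, which inhibits Mmp14 and with it forms the complex that activates the Mmp2 precursor, averaged 283 CPM in bi and 213 CPM in L, against 631 CPM in B. Its log2 fold change was -1.16 in bi against B (adjusted p = 0.00487) and -1.60 in L against B (adjusted p = 0.000482). No inhibitor was called in the other 4 comparisons. Timp1 was at 19.0 CPM with MYC and 78.1 CPM with Her2 (-2.34, SE 0.61, adjusted p = 0.0600).

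The plasminogen activation genes, whose products can start the activation of metalloproteinase precursors, had 2 of 8 tested members up and 1 down in L against B (11.5% and 9.26% of all genes tested) and in bi against B (7.88% and 5.11% of all genes tested). St14, the membrane serine protease matriptase, was at 149 CPM in L and 1.54 CPM in B (6.57, SE 0.28, adjusted p = 1.39e-06). In MYC against Her2, 2 of 8 fell, where 2.13% of all genes tested did. Plaur, the urokinase receptor gene, was at 7.62 CPM with MYC and 58.8 CPM with Her2 (-2.95, SE 0.39, adjusted p = 0.00605), and Serpinb2, a plasminogen activator inhibitor gene, at 1.99 CPM with MYC and 23.3 CPM with Her2 (-3.82, adjusted p = 0.0378). No gene of this list was called between bi and L, or between either oncogene and control.

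Of the proprotein convertases, which remove propeptides, 2 of 5 tested rose in L and in bi against B (11.5% and 7.88% of all genes tested), and 1 fell in L (9.26% of all genes tested). Pcsk6 was at 17.0 CPM in L and 0.0337 CPM in B (adjusted p = 1.10e-05) and Pcsk5 at 16.4 CPM in L and 0.258 CPM in B (5.57, adjusted p = 2.73e-05). Furin, the convertase known to process Mmp14 and Mmp11, was at 136 CPM in L and 239.9 CPM in B (-0.82, adjusted p = 0.0408). Pcsk5 rose in MYC against Her2 (1.93, adjusted p = 0.0246), 1 of 5 where 2.44% of all genes tested rose, and none was called in the other comparisons.

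The related ADAM and ADAMTS proteases had 7 of 28 members up and 5 down in L against B, where 11.5% of all genes tested rose and 9.26% fell. In bi against B 5 were up and 3 down, where 7.88% of all genes tested rose and 5.11% fell. Adamts20 had no reads in B and 284 reads in L, at least 65.6-fold higher in L against a floor of 3 reads over the B libraries. Adamts15 rose by 3.46 in L (adjusted p = 0.00802), and Adamts12 fell by 3.27 (adjusted p = 0.000175) and Adam12 fell by 2.79 (adjusted p = 0.0167). In MYC against Her2 Adamts12 (1.53) and Adamts5 (1.27) rose, 2 of 28 where 2.44% of all genes tested did, and none was called in the other comparisons. Of the matrix substrate genes, 3 of 16 rose and 5 fell in L against B (11.5% and 9.26% of all genes tested), and 4 rose and 1 fell in bi against B (7.88% and 5.11% of all genes tested). The proteoglycan gene Dcn was at 0.619 CPM in L and 16.8 CPM in B (-4.38, adjusted p = 0.00390). In MYC against Her2 1 rose and 3 fell (2.44% and 2.13% of all genes tested), and none was called in the other comparisons.

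Of 17 transcription factor genes known to act on Mmp promoters, 4 rose and 2 fell in L against B (11.5% and 9.26% of all genes tested), and 1 fell in bi against B (5.11% of all genes tested). The AP-1 genes Fosb (1.89, adjusted p = 0.00496) and Jun (1.22, adjusted p = 0.0311) rose in L, while Ets2 was at 91.4 CPM in L and 243 CPM in B (-1.51, adjusted p = 0.000911) and Runx2 at 36.3 CPM in L and 67.6 CPM in B (-0.91, adjusted p = 0.0223). In MYC against Her2 4 of 17 fell, where 2.13% of all genes tested did. Fosl1, which encodes the AP-1 subunit Fra-1, was at 9.54, 36.4 and 20.1 CPM in the MYC, Her2 and control libraries of bi, at 5.74, 75.7 and 16.2 CPM in those of L and at 25.4, 72.1 and 52.7 CPM in those of B. Her2 was highest and MYC lowest in all 3 populations. The log2 fold change of Fosl1 was -2.45 in MYC against Her2 (SE 0.46, adjusted p = 0.0205), and that of the Ets-family gene Etv5 was -1.79 (adjusted p = 0.00605). None of the 17 was called between bi and L, or between either oncogene and control.

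Among genes of inducing signals and surface partners, 4 of 15 tested rose and 1 fell in L against B (11.5% and 9.26% of all genes tested), and the same counts were found in bi against B (7.88% and 5.11% of all genes tested). Tnf was at 6.61 CPM in L and 0.0373 CPM in B (7.05, adjusted p = 0.000102, edgeR). It had 5, 0 and 1 reads in the control, MYC and Her2 libraries of B, so the size of its log2 value rests on few reads. Lcn2 was at 954 CPM in L and 18.5 CPM in B (5.59, adjusted p = 6.29e-05). The tetraspanin gene Cd63 was at 202 CPM in L and 384 CPM in B (-1.03, adjusted p = 0.0451). Lcn2 (-2.78, adjusted p = 0.0283) and Il1a (-1.34, adjusted p = 0.0260) fell in bi against L, 2 of 15 where 0.256% of all genes tested fell. In MYC against Her2 1 rose and 4 fell, where 2.44% and 2.13% of all genes tested rose and fell. The EGF receptor ligand genes Areg, at 1.97 CPM with MYC and 82.3 CPM with Her2 (-5.46, SE 0.38, adjusted p = 0.000288), and Hbegf, at 14.5 CPM with MYC and 133 CPM with Her2 (-3.06, adjusted p = 0.00871), were among them. In MYC against control Areg and the osteopontin gene Spp1 fell, 2 of 15 where 0.365% of all genes tested changed in either direction, and none was called in Her2 against control.

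Across the 9 libraries, Pearson correlations of log2 CPM between members were highest for Mmp3 and Mmp9 and for Mmp12 and Mmp14 (0.95 each), followed by Mmp12 and Mmp13 (0.93) and Mmp13 and Mmp14 (0.92), while Mmp10 was at -0.39 to 0.58 with the other members. Among 10156 genes, the one most like Mmp12 was Jag1 (0.985), most like Mmp13 Yipf5 (0.980), most like Mmp9 Cyp4f16 (0.997), most like Mmp10 Pthlh (0.963) and most like Mmp3 Homer3 (0.974). For Mmp2 it was Ubxn2b (0.963), for Mmp11 Zfp516 (0.990), for Mmp14 Dnajb5 (0.956) and for Mmp19 Diaph2 (0.991). All points share the 9 libraries and their 3 populations and arms, and the values are descriptions of these libraries.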

How the data were processed

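RNA was sequenced from 9 libraries of Comma-1D cells, 1 for each of 3 populations and 3 arms. Per the labels, libraries were made with a stranded ribosomal depletion kit, KAPA RNA HyperPrep with RiboErase, while the molecule label reads polyA RNA. Per the submitters' processing notes, the files were made with Salmon 0.9.1 on mm10. The annotation release and the strand setting are not given in the sources used here. Per the file headers, the deposited columns are an estimated count per gene, a TPM value, a length and an effective length. The deposited lengths, in bases, were compared with those implied by counts and TPM: for Mmp14 the deposited gene length was 366 to 371 while counts per TPM implied an effective length of 2233 to 2343, so the TPM is not based on that length column and was used as the scale per length.

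Symbols came from the GENCODE annotation of GRCm38 (53544 identifiers matched with version, 563 without, 174 had no symbol). Estimated counts were rounded to whole numbers. Low genes were removed with edgeR's filterByExpr, grouped by arm, at a minimum count of 10 and a total of 15, leaving 23834 genes. Libraries were scaled by TMM. The fit was an additive quasi-likelihood model of population and arm in edgeR 4.0.16 (R 4.3.3) with 4 residual degrees of freedom and Benjamini-Hochberg adjustment over all genes tested. Because edgeR draws the spread of each gene towards a trend over all genes, the p-values rest on more than these 4 degrees of freedom. A population difference is the average over the arms and an oncogene difference the average over the populations, so the residual holds their interaction. The standard error is the log2 fold change divided by the square root of F. CPM were computed over the deposited library totals. For log2 ratios between single libraries, TMM scaling and a prior count of 2 were applied. The fit was also run on simulated counts with known changes. Those counts held no interaction of population and arm, so that run cannot show how the fit acts where oncogene differences vary between populations. Alternatives were RLE scaling, DESeq2 1.42.0, no filter, limma 3.58.1 on log2 TPM with pseudocounts of 0.1 and 1, no block, and each library, arm or population left out. The members, the lists (inhibitors, plasminogen activation, proprotein convertases, ADAM and ADAMTS, transcription factors, inducing signals and surface partners, matrix substrates, cell type markers) and the tests were chosen with earlier results of these data known. All 9 members are named. Other Mmp genes are named at a mean of 1 CPM or more in a population or arm, or where called. In each list up to 2 called genes are named each way in a comparison, and not every one of these is printed. The genes most like a member were sought among genes with a symbol and a mean of 5 CPM or more. Some genes of the lists are counted but not reported here by name.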

Additional observations from a re-analysis of the deposited data

Results flagged for a closer look

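The difference between Her2 and control had opposite signs in different populations for 3 members, each of size 1 or more on the log2 scale and each from 1 library against 1. Mmp3 had a log2 ratio of 1.35 in bi, 1.27 in L and -2.12 in B. Mmp10 had 3.46 in bi, 4.99 in L and -2.55 in B. For Mmp13 the ratios were 1.29 in L and -4.23 in B. These opposite signs were not tested gene by gene within pairs of populations. The added model that sets B against bi and L gave adjusted p-values of 0.0680 for Mmp3, 0.134 for Mmp10 and 0.143 for Mmp13 (edgeR), with 2 residual degrees of freedom, all from bi and L, and it was set up for the pattern already seen. All 3 values in B rest on B control, which held 116 CPM of Mmp3, 7.06 CPM of Mmp10 and 405 CPM of Mmp13, and the part of that library was not tested.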

How the results depend on the processing

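The calls of L against B (Mmp3, Mmp9, Mmp12, Mmp13 and Mmp19) and that of Mmp19 in bi against B were kept in all 18 alternatives. The values that changed sign were all of members without a call in that comparison, and the cause of these changes was not tested. Without the block (population or arm left out of the model as a pairing term), 5 members were called for L against B, 3 for bi against B, 0 for bi against L and 0 for MYC against Her2. That fit turned Mmp10 to 0.96 in L against B and to 1.56 in bi against B, Mmp13 to -0.05 in bi against L, and Mmp3 to -0.92, Mmp9 to -0.16 and Mmp19 to -0.14 in Her2 against control. DESeq2 called 3 members for bi against L, 1 for MYC against control, 1 for Her2 against control and 2 for MYC against Her2. With no filter on low counts the numbers were 4 for bi against L, 3 for MYC against control, 1 for Her2 against control and 3 for MYC against Her2. On log2 TPM with limma, 0 members were called for bi against L and 0 for MYC against Her2 with either pseudocount, and with a pseudocount of 1 there were 3 for bi against B. With that pseudocount Mmp10 was at 0.07 in L against B and 0.57 in bi against B (0.55 with a pseudocount of 0.1), Mmp3 at -0.03 in Her2 against control and Mmp11 at -0.02 in MYC against Her2.

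With each library, arm or population left out, the count of called members ran from 6 to 9 for L against B, 3 to 7 for bi against B, 0 to 3 for bi against L, 0 to 2 for MYC against control, 0 to 1 for Her2 against control and 0 to 4 for MYC against Her2. The log2 fold change of Mmp10 ran from -2.88 to 2.05 in L against B, from -1.79 to 2.97 in bi against B and from -0.59 to 2.38 in bi against L. In bi against L, Mmp11 ran from -0.51 to 0.24, Mmp13 from -0.45 to 1.53 and Mmp14 from -0.08 to 0.20. In MYC against control, Mmp12 ran from -3.60 to 0.22, the last without B control. In Her2 against control, Mmp3 ran from -0.13 to 1.36, Mmp12 from -4.31 to 0.04, Mmp13 from -2.40 to 0.90 and Mmp19 from -0.10 to 0.26. In MYC against Her2, Mmp11 ran from -0.19 to 0.63, Mmp12 from -0.79 to 1.65 and Mmp14 from -0.13 to 0.16.

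With 1 library per population and arm, no effect within a population has a test of its own. Mmp10 with MYC and Mmp9 in L rest on few reads.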
